A study of Mus musculus with 6 samples.

Results

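Ketone bodies and lactate are fuels that the heart takes from the blood, and 8 genes that handle them were examined in mouse left ventricle. They were chosen by name, with earlier results of these data known. The ketone-oxidising enzymes were Bdh1, Oxct1 and Acat1, and the lactate dehydrogenases were Ldha and Ldhb. The monocarboxylate transporters were Slc16a1 and Slc16a3, with their chaperone Bsg. All 8 were found among 31273 gene symbols, and all 8 were among the 12404 genes whose mean reached 1 TPM (a share of transcripts that is corrected for gene length and scaled to a fixed total per library) and which were tested. The study compared 3 samples of left ventricle labelled as overexpressing RBM20 in cardiomyocytes with 3 labelled control. RBM20 is a splicing regulator of the heart, and the study describes a knock-in that tamoxifen switches on in cardiomyocytes. The promoter that drives the recombinase, the ages, the strain and the alleles carried by the controls were not given in the sources used here. Sample titles use the prefix cre for the overexpression libraries and cki for the controls. Groups were taken from the genotype labels.

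As background, ketone bodies and lactate enter a cardiomyocyte through monocarboxylate transporters, which need a chaperone such as basigin to reach the surface membrane. In mitochondria, 3-hydroxybutyrate is oxidised to acetoacetate by BDH1, activated with coenzyme A by OXCT1, which is the rate-setting step of ketone use, and cleaved to acetyl-CoA by ACAT1. Lactate dehydrogenase is a tetramer of A and B subunits. The B subunit is the form of the adult heart and is associated with lactate oxidation, whereas the A subunit prevails in glycolytic tissue and is associated with lactate production.

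Rbm20 stood at 321, 913 and 907 TPM in overexpression replicates 1 to 3, against 74.9, 90.9 and 79.5 TPM in the control libraries, and thus followed the labels. Esr1, the estrogen receptor gene, was at 53.0 to 218 TPM in overexpression libraries and 0.234 to 0.415 TPM in control libraries. Whether these reads came from the Esr1 gene itself or from a recombinase construct was not tested. High Esr1 and the title prefix cre both followed the overexpression label. Any difference in recombinase or tamoxifen between the groups cannot be told apart from RBM20 overexpression here. The Y-linked Ddx3y reached 88.1 TPM in overexpression replicate 1, where Xist was at 0.0172 TPM, and was at 0 TPM in the other 5 libraries, all with Xist at 34.4 TPM or more, so sex was not balanced. Without overexpression replicate 1, 7 of the 8 genes kept their TPM call, the exception being Bdh1. Mitochondrially encoded genes took 38.7% ± 2.21 of the TPM in overexpression libraries and 49.7% ± 1.99 in control libraries (SD, n = 3 each). Over all tested genes the median log2(TPM + 1) difference, overexpression minus control, was 0.55. Each of the 8 genes is therefore also given after rescaling, and values of other genes are in TPM unless rescaling is named. In rescaling, every library was divided by the median, over genes, of its ratios to the geometric mean of the 6. The factors were 1.16 to 1.34 for overexpression and 0.783 to 0.848 for control, and the median log2 difference became 0.01. Estimated depth was 25600000 to 45200000 counting units in overexpression libraries and 20900000 to 35400000 in control libraries, where a unit may be a read pair.

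The sequences before the starts of Ldha and Ldhb are shown because these genes encode alternative subunits of the same enzyme and their shares are compared in the results that follow. In GRCm38 with GENCODE M21, Ldha spans chr7:46841475-46855627 on the plus strand and Ldhb spans chr6:142490249-142507957 on the minus strand. RefSeq promoters (GRCm38.p6) were found for 6 of the 8 genes, not for Acat1 and Bsg. The 250 bases before each annotated start were searched on both strands for ACGTG and GCGTG, the core of the site that hypoxia-inducible factors bind, and for AAGGTCA, a site of estrogen-related receptors. Capitals mark the matches. The palindrome CACGTG counts as a match on either strand, so it adds 2 overlapping matches. The first Ldha window is chr7:46845554-46845803 on the plus strand and the second is chr7:46846832-46847081 on the plus strand. First and second name the RefSeq starts in order, and the GENCODE span of Ldha begins before both. The bases just after the first start were not found in any GENCODE transcript of Ldha, whereas those after the second were. The Ldhb window is chr6:142507958-142508207 on the minus strand.
Ldha, first start: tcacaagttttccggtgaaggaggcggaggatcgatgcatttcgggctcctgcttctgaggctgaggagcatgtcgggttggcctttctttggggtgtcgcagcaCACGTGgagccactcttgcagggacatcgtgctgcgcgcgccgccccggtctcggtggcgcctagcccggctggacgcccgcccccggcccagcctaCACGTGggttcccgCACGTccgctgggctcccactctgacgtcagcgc
Ldha, second start: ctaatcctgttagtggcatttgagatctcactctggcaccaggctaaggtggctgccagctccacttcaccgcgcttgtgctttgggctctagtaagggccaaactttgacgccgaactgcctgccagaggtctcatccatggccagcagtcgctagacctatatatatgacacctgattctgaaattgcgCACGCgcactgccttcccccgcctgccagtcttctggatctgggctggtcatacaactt
Ldhb: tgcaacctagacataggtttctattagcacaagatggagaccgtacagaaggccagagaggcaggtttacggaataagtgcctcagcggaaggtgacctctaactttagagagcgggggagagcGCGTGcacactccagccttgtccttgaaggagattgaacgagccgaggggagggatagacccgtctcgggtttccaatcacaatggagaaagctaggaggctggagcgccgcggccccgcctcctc

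The first Ldha window held 5 matches to the hypoxia cores in 3 separate runs, and the second Ldha window and the Ldhb window held 1 each. Slc16a1 had 4 matches, Slc16a3 had 2 and Oxct1 had 1, and the 2 windows of Bdh1 had 1 and 0. At least 1 such core was present in 38.6% of all 32851 RefSeq promoter windows of this length. The estrogen-related receptor letters were in no window of these genes and in 4.08% of all windows. These are letter matches in short windows, and binding was not measured.

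Most of these genes were lower with RBM20 overexpression. In deposited TPM, 5 of the 8 were called lower (Ldhb, Oxct1, Bsg, Bdh1 and Acat1; limma, adjusted p under 0.05), against 9.09% of all tested genes, and 2 were called higher (Slc16a3 and Ldha), against 59.0% of all tested genes. After rescaling, 6 were called lower, against 24.0% of all genes, and 1 was called higher, against 22.2%. The gene added to the lower side was Slc16a1, and Ldha lost its call. The 8 genes had a median log2 difference of -0.49 on the TPM scale, beside 0.55 over all tested genes, and of -1.11 once rescaled, beside 0.01. The groups did not overlap in 7 of the 8 genes in TPM, where 72.5% of all tested genes did not overlap, and in 6 of the 8 after rescaling, where 57.0% did not. With 8 genes, neither count is far from the background. The summed TPM of the 8 genes was 2985 ± 196 in overexpression libraries and 4191 ± 113 in control libraries (SD, n = 3 each).

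**Figure D1:**
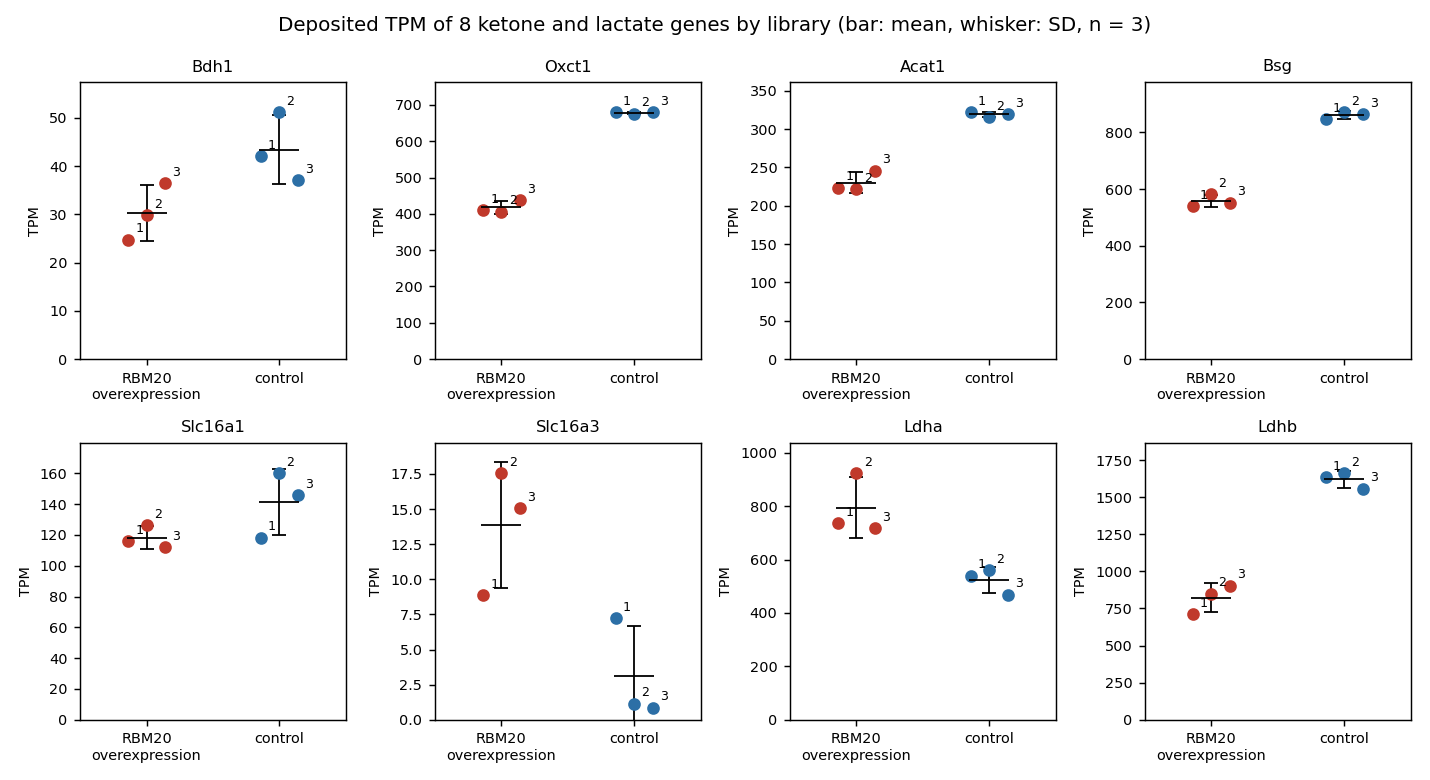
TPM of the 8 genes (y axis of each panel, starting at 0) in RBM20 overexpression and control libraries. Points are libraries numbered by replicate, the bar is the mean and the whisker the SD (n = 3), with the lower whisker of Slc16a3 in controls ending below the axis. Overexpression and control ranges overlap only for Slc16a1, and for Bdh1 replicate 3 of each group is nearly level, at 36.4 and 37.0 TPM. Control replicate 1 stands above the other controls for Slc16a3 at 7.26 TPM.

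The 3 enzymes of ketone oxidation were lower together. Oxct1, the CoA transferase, had 409, 406 and 437 TPM in overexpression libraries, against 680, 676 and 681 TPM in control libraries. The control values lay within 5 TPM of each other, and every overexpression value was far below them. The means were 417 ± 17.1 and 679 ± 2.57 TPM (SD, n = 3 each), a fold of 0.615, with a log2 difference of -0.70 (SE 0.075, limma adjusted p = 0.000109).

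Acat1, the mitochondrial thiolase that splits acetoacetyl-CoA and also serves isoleucine breakdown, had 224, 221 and 246 TPM in overexpression libraries, against 322, 316 and 319 TPM in control libraries. Its groups did not overlap, and the log2 difference was -0.47 (SE 0.080, limma adjusted p = 0.000983). Bdh1, which oxidises 3-hydroxybutyrate, was expressed at a lower level than its partners. It had 24.8, 29.8 and 36.4 TPM in overexpression libraries, against 42.1, 51.2 and 37.0 TPM in control libraries. The highest overexpression value and the lowest control value were nearly equal, and the log2 difference of -0.51 (SE 0.166) passed the limma test with an adjusted p of 0.0236. That call ended without overexpression replicate 1 (adjusted p = 0.071), without overexpression replicate 2 (0.0647) or without control replicate 2 (0.0838), and with no expression filter (0.053). After rescaling the log2 differences were -1.33 for Oxct1, -1.10 for Acat1 and -1.12 for Bdh1, and all passed (adjusted p between 5.47e-05 and 0.0013). Annotated antisense genes overlap Bdh1 and Oxct1, and whether the counting kept strands apart is unknown here.

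Ratios taken within a library do not depend on its scaling. The ratio of Oxct1 to Bdh1 TPM was 16.5, 13.6 and 12.0 in overexpression libraries and 16.2, 13.2 and 18.4 in control libraries. These ranges overlapped, and an exact two-sided permutation test of the log2 ratio gave p = 0.5 (difference -0.18; the smallest p that 3 against 3 libraries allow is 0.1). The ratio of Oxct1 to Acat1 TPM, chosen after the values had been seen, was 1.78 to 1.83 in overexpression libraries and 2.11 to 2.14 in control libraries. The ratio was thus lower in all 3 overexpression libraries than in any control.

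Of the transport genes, Bsg was lower and Slc16a3 higher on both scales, and Slc16a1 was lower only after rescaling. Bsg, which encodes basigin, had 540, 583 and 552 TPM in overexpression libraries, against 847, 872 and 866 TPM in control libraries. The groups were far apart relative to the spread within them, with a log2 difference of -0.63 (SE 0.075, limma adjusted p = 0.000183) in TPM and -1.25 (SE 0.085, adjusted p = 3.3e-05) after rescaling.

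Slc16a1 encodes MCT1, a transporter of lactate and ketone bodies. It had 116, 126 and 112 TPM in overexpression libraries, against 118, 160 and 146 TPM in control libraries. Control replicate 1 lay inside the range of the overexpression libraries, and the log2 difference of -0.25 (SE 0.122) did not pass in TPM (limma adjusted p = 0.098). Without control replicate 1 it was -0.37 and passed (adjusted p = 0.0177). After rescaling the groups separated, at 92.7, 94.4 and 96.4 in overexpression libraries against 149, 189 and 186 in control libraries, and the gene was called lower (log2 difference -0.87, SE 0.106, adjusted p = 0.000413).

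Slc16a3, which encodes MCT4, a transporter known for exporting lactate from glycolytic cells, was the least abundant of the 8. It had 8.87, 17.6 and 15.1 TPM in overexpression libraries, against 7.26, 1.16 and 0.866 TPM in control libraries. Control replicate 1 was several-fold above the other controls and close to overexpression replicate 1. The means were 13.8 ± 4.48 and 3.09 ± 3.61 TPM (SD, n = 3 each), with a log2(TPM + 1) difference of 2.16 (SE 0.521, limma adjusted p = 0.00604). The 3 control values correspond to an estimated 389, 87.1 and 39.9 counting units. Without control replicate 1 the log2 difference was 2.84 (adjusted p = 9.63e-05).

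After rescaling, Slc16a3 was 7.11, 13.1 and 13.0 in overexpression libraries, against 9.14, 1.36 and 1.11 in control libraries. The groups then overlapped, and the log2 difference of 1.66 (SE 0.564) was just past the threshold (limma adjusted p = 0.0426). On this scale the call ended without overexpression replicate 2 (adjusted p = 0.124) or 3 (0.105) and without control replicate 2 (0.131) or 3 (0.138). Without control replicate 1 it was 2.41 (adjusted p = 0.000511).

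Slc16a3 made up 7.12%, 12.2% and 11.9% of the summed Slc16a1 and Slc16a3 TPM in overexpression libraries, against 5.78%, 0.715% and 0.591% in control libraries. The groups did not overlap, and the exact two-sided permutation p was 0.1, the smallest possible. The difference of 8.03 percentage points was 9.74 without control replicate 1. MCT1 thus remained by far the more abundant transcript of the pair in all 6 libraries. Bsg TPM over the sum of both transporters was 4.04 to 4.35 in overexpression libraries and 5.40 to 6.75 in control libraries, a ratio chosen after the values had been seen.

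The share of the lactate dehydrogenase subunits shifted away from Ldhb, which was lower on both scales, whereas Ldha was higher in TPM and at -0.03 (log2, not called) after rescaling. Ldhb, the heart subunit, had 713, 850 and 905 TPM in overexpression libraries, against 1637, 1665 and 1558 TPM in control libraries. Every control value was far above every overexpression value, and the means were 823 ± 98.6 and 1620 ± 55.7 TPM (SD, n = 3 each). Its log2 difference was -0.98 (SE 0.102, limma adjusted p = 9.72e-05) in TPM and -1.61 (SE 0.125, adjusted p = 5.58e-05) after rescaling, the largest fall of the 8 genes on both scales.

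Ldha, the subunit of glycolytic tissue, had 737, 925 and 718 TPM in overexpression libraries, against 540, 560 and 468 TPM in control libraries. All overexpression libraries were above all controls in TPM, with a log2 difference of 0.60 (SE 0.119, limma adjusted p = 0.00235). This lies close to the median of 0.55 over all tested genes. After rescaling the values were 590, 690 and 618 in overexpression libraries and 680, 660 and 598 in control libraries. These overlapped, and the log2 difference was -0.03 with a 95% interval of -0.26 to 0.20 (adjusted p = 0.823). Ldha is known to have processed pseudogenes, and how reads shared with them were counted was not given in the sources used here.

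**Figure D2:**
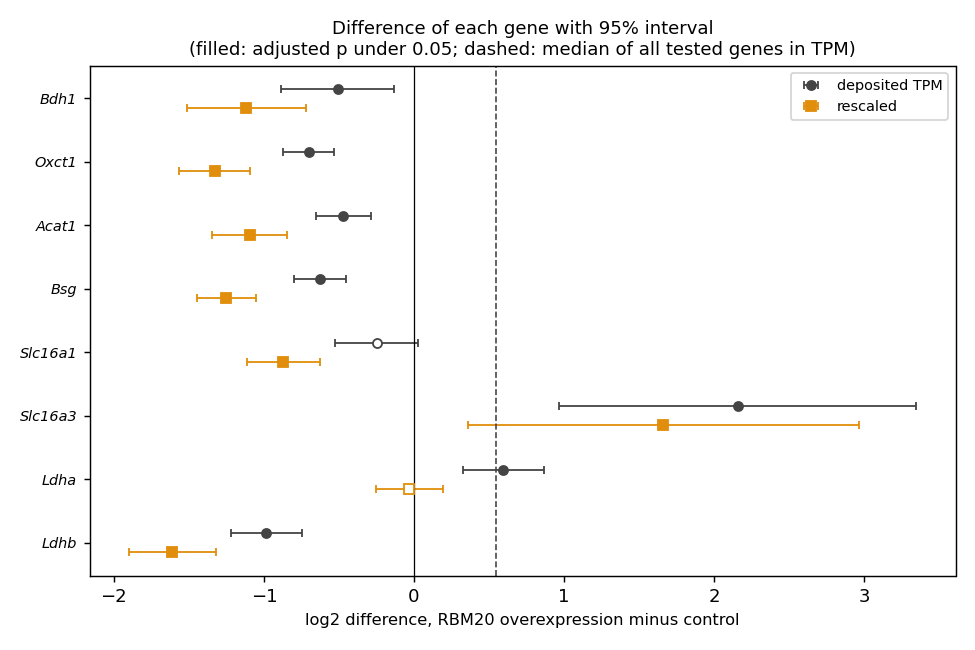
Log2 difference of each gene, RBM20 overexpression minus control (x axis), with its 95% interval from limma, in deposited TPM (circles) and after rescaling (squares); filled symbols passed an adjusted p of 0.05. The dashed line is the median of all tested genes in TPM, 0.55; Ldha lies at that line in TPM and at -0.03 after rescaling, and Slc16a3 is the member above it on both scales.

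Ldhb made up 49.2%, 47.9% and 55.7% of the summed Ldha and Ldhb TPM in overexpression libraries, against 75.2%, 74.8% and 76.9% in control libraries. The means were 50.9% ± 4.21 and 75.6% ± 1.10 (SD, n = 3 each), a difference of -24.7 percentage points that scaling cannot change. All 3 overexpression libraries were lower than all 3 controls, and the exact two-sided permutation p of 0.1 is the smallest that the design allows. Leaving out any library gave differences between -27.1 and -23.2 points. Expressed the other way, Ldha TPM over Ldhb TPM was 1.03, 1.09 and 0.794 in overexpression libraries and 0.330, 0.336 and 0.301 in control libraries. The summed TPM of both genes was 1616 ± 162 in overexpression libraries and 2143 ± 104 in control libraries (SD, n = 3 each).

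**Figure D3:**
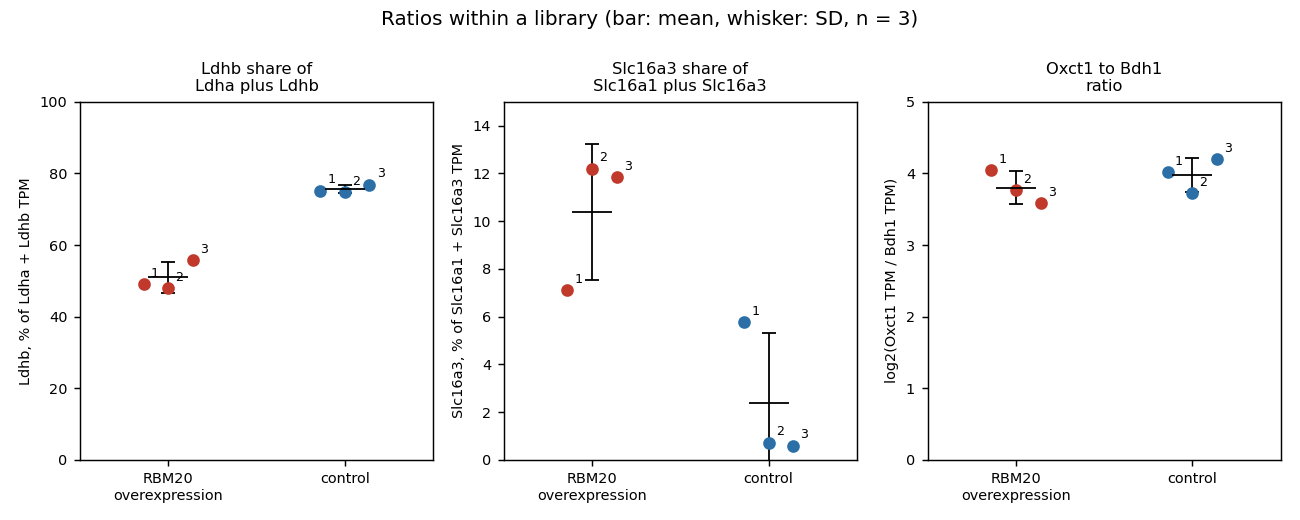
Ldhb as a percentage of Ldha plus Ldhb TPM, Slc16a3 as a percentage of Slc16a1 plus Slc16a3 TPM, and the log2 ratio of Oxct1 to Bdh1 TPM (y axes, all starting at 0) by library. Points are libraries numbered by replicate, bars are means and whiskers SD (n = 3), with 1 whisker ending below the axis. The Ldhb share is 47.9% to 55.7% in overexpression libraries and 74.8% to 76.9% in controls, whereas the Oxct1 to Bdh1 ratio overlaps.

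The order of the levels changed with these shifts. In overexpression libraries it ran Ldhb, Ldha, Bsg, Oxct1, Acat1, Slc16a1, Bdh1 and Slc16a3, and in control libraries Ldhb, Bsg, Oxct1, Ldha, Acat1, Slc16a1, Bdh1 and Slc16a3. Ldha thus stood above Bsg and Oxct1 in overexpression libraries, at 794 ± 114 TPM, and below both in control libraries, at 523 ± 48.2 TPM (SD, n = 3 each). Ldhb and Ldha overlapped in overexpression libraries. No other neighbours in either order had overlapping ranges.

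These are samples of left ventricle, in which fewer cells of a type and less RNA per cell cannot be told apart. The counts of markers that follow stand beside 59.0% of all tested genes called higher and 9.09% called lower in TPM, and 22.2% called higher and 24.0% called lower after rescaling. Of 10 cardiomyocyte markers, 2 were called higher and 5 lower in TPM and 0 higher and 8 lower after rescaling. Their summed level was 49895 to 56173 TPM in overexpression libraries and 58053 to 65885 TPM in control libraries, far above the sums of the other marker lists. The median log2 difference of these cardiomyocyte markers was -0.30 in TPM and -0.93 after rescaling, beside -0.49 and -1.11 for the 8 genes. All 10 macrophage markers were called higher in TPM and 9 after rescaling, with sums of 809 to 1400 TPM in overexpression libraries and 367 to 484 TPM in control libraries. Of 10 fibroblast markers, 8 were higher and 1 lower in TPM and 6 higher and 2 lower after rescaling, with sums of 2322 to 2921 TPM in overexpression libraries and 1267 to 1695 TPM in control libraries. Of 10 endothelial markers, 1 was higher in TPM and 3 were lower after rescaling, with sums of 620 to 648 TPM in overexpression libraries and 437 to 608 TPM in control libraries. No marker of these 4 lists was at 0 in all libraries. None of 10 lymphocyte markers reached a mean of 1 TPM. The part of these cell types, of sex, of the recombinase and of the mitochondrial share in the gene differences was not tested.

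More of the genes that flank these steps fell than rose. Of 31 other ketone, lactate and pyruvate genes, 23 were tested, and in TPM 11 were lower and 5 higher, with 18 lower and 3 higher after rescaling, to be read against the all-gene shares given for the markers. The 8 that stayed under a mean of 1 TPM included Oxct2a, Oxct2b, Ldhc and Ldhal6b, which were listed at 0 in every library. The 23 tested genes had a median log2 difference of -0.42 in TPM and -0.82 when rescaled, beside 0.55 and 0.01 over all tested genes.

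Among 5 tested genes of ketone synthesis and handling, 2 were called higher and 0 lower in TPM, and 1 was called higher and 3 lower after rescaling. Aacs, the cytosolic enzyme that activates acetoacetate for lipid synthesis, was low at 3.98 ± 0.739 TPM in overexpression libraries and 1.26 ± 0.613 TPM in control libraries (SD, n = 3 each), and was called higher on both scales (limma adjusted p = 0.00257 and 0.0326).

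Among 4 tested genes of lactate handling, Emb, which encodes embigin, the other transporter chaperone, was called higher at 4.45 ± 1.61 TPM in overexpression libraries and 1.17 ± 0.274 TPM in control libraries (limma adjusted p = 0.00125 in TPM and 0.013 after rescaling). Emb was thus higher and Bsg lower, yet Emb stayed far below the level of Bsg in every library. Whether the same cells express both was not tested. Ldhd, the mitochondrial D-lactate dehydrogenase, was lower at 11.1 ± 1.04 TPM in overexpression libraries and 15.3 ± 1.22 TPM in control libraries (adjusted p = 0.0146). Slc16a7, which encodes MCT2, was near the filter at 1.17 ± 0.0196 TPM in overexpression libraries and 1.92 ± 0.363 TPM in control libraries (adjusted p = 0.049).

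Pyruvate entry, where lactate and glucose meet, was represented by 14 genes, all tested, of which 9 were lower and 2 higher in TPM and 12 were lower and 1 higher after rescaling. Over all tested genes, 9.09% were lower and 59.0% higher in TPM, and 24.0% were lower and 22.2% higher after rescaling. The median log2 difference of the 14 genes was -0.52 in TPM, beside 0.55 over all tested genes, and -1.14 after rescaling, beside 0.01. Mpc2, a subunit of the mitochondrial pyruvate carrier, had 60.7, 69.7 and 73.6 TPM in overexpression libraries, against 134, 123 and 113 TPM in control libraries (log2 difference -0.85, SE 0.108, limma adjusted p = 0.000238). Its partner Mpc1 fell to 104 ± 4.14 TPM in overexpression libraries against 132 ± 6.54 TPM in control libraries (SD, n = 3 each). Of the pyruvate dehydrogenase complex, Pdhb, Dlat and Dld were lower in TPM at folds of 0.702, 0.685 and 0.694. Pdha1 and Pdhx were not called in TPM (adjusted p = 0.0751 and 0.27) and were lower after rescaling.

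The pyruvate dehydrogenase kinases, which switch the complex off, went both ways. Pdk4, the fasting-responsive kinase, had 182, 306 and 241 TPM in overexpression libraries, against 634, 712 and 1397 TPM in control libraries. Control replicate 3 was well above the other controls, the groups did not overlap, and the log2 difference was -1.85 (SE 0.293, limma adjusted p = 0.000723). Pdk2 was at 123 ± 23.1 TPM in overexpression libraries and 246 ± 7.58 TPM in control libraries (log2 difference -1.01). Pdk3 had 16.1, 19.7 and 17.4 TPM in overexpression libraries, against 1.88, 2.89 and 1.77 TPM in control libraries, a fold of 8.15 with a log2(TPM + 1) difference of 2.57 (SE 0.172, adjusted p = 1.7e-05) in TPM and 2.06 after rescaling. Pdk1 was higher in TPM (log2 difference 0.34) and lower after rescaling (-0.28), called both times. Of the phosphatases that switch the complex back on, Pdp2 had 2.74 ± 0.543 TPM in overexpression libraries and 8.56 ± 2.20 TPM in control libraries. The more abundant Pdp1 had 21.1 ± 3.81 TPM in overexpression libraries and 16.2 ± 2.95 TPM in control libraries. Pdp1 was not called in TPM or after rescaling (limma adjusted p = 0.0949 and 0.339).

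**Figure D4:**
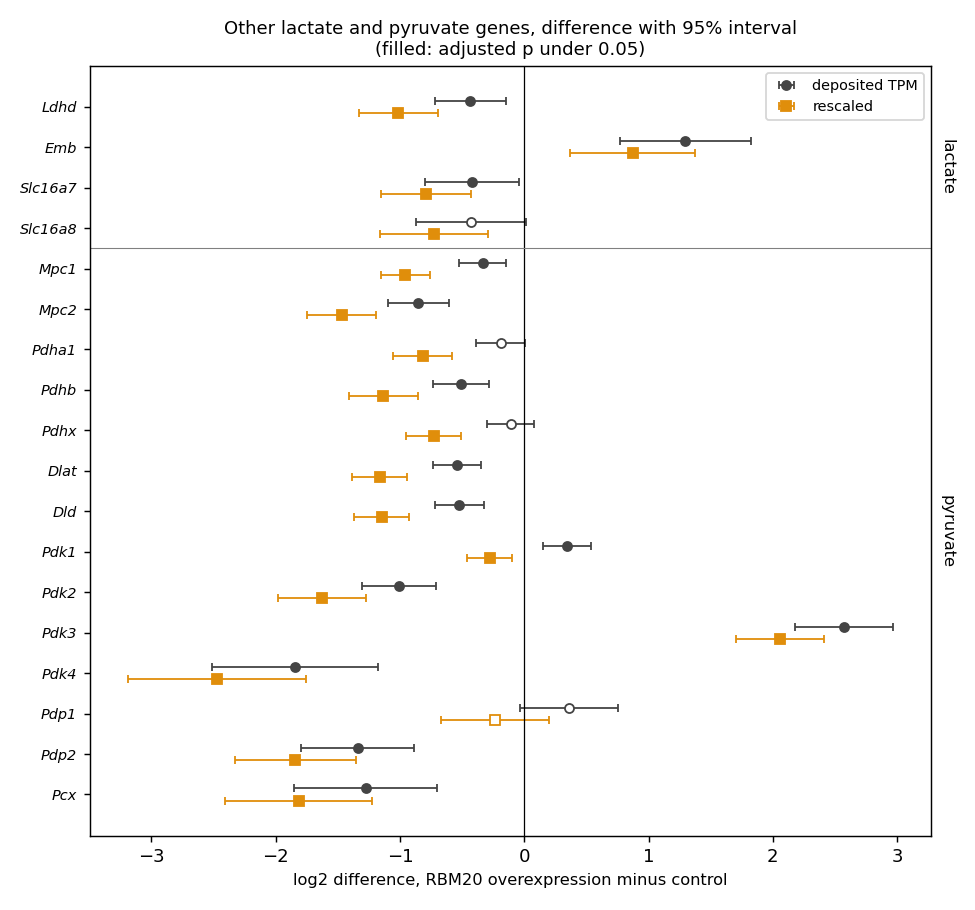
Log2 difference, RBM20 overexpression minus control (x axis), with its 95% interval from limma for the 18 tested lactate and pyruvate genes other than the 8, in deposited TPM (circles) and after rescaling (squares). Filled symbols passed an adjusted p of 0.05. Pdk3 at 2.57 and Pdk4 at -1.85 in TPM lie at opposite ends, and most pyruvate genes lie below 0.

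The tested genes with the most similar pattern were found by the root mean square distance over the 6 libraries of log2(rescaled TPM + 1), each gene centred on its own mean. Etfa, Pygb and Mmut lay nearest to Ldhb, at distances of 0.049, 0.049 and 0.062. Suclg2 at 0.015 and Dip2c at 0.030 lay nearest to Acat1, and Ptgr2, Rmdn1 and Cyc1 nearest to Oxct1 (0.034 to 0.039). Rmdn1 was also among the 3 nearest to Bsg, with Gpd1l and Mrpl18 (0.037 to 0.038). Nearest to Bdh1 were Srrm4, Nexn and Ndrg4, to Slc16a1 Elmod3, Tmem186 and Slc37a4, and to Ldha Usp33, Nhsl2 and Lrrc40. The nearest to Slc16a3 lay much farther off: Inhbb at 0.377, Sphk1 at 0.402 and Myc at 0.443. Like Slc16a3, all 3 were high in control replicate 1 alone of the controls, as Sphk1 shows with 4.63, 9.39 and 16.6 TPM in overexpression libraries against 7.59, 0.894 and 0.98 TPM in control libraries.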

How the data were processed

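Polyadenylated RNA of 6 samples of mouse left ventricle was sequenced, 3 per genotype label. The deposited table holds TPM per gene symbol, computed by the authors and scaled to the same total in each library. The build mm8 and the tools STAR-Fusion 1.11.0, GATK 4.2.6.1, featureCounts 2.0.3 and edgeR 3.40.2 were listed, without their roles, per the submitters' processing notes. The aligner, the annotation and use of strand in counting were not given in the sources used here, so antisense overlaps at Bdh1 and Oxct1 cannot be separated.

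The filter was a mean of 1 TPM or more, and log2(TPM + 1) was compared across all remaining genes with limma 3.58.1 in R 4.3.3 (trended, two-sided, Benjamini-Hochberg over all 12404 genes, threshold 0.05). Fold changes on this scale understate low genes, and folds are ratios of mean TPM. The fit was tested on simulated data with as many genes raised as lowered. In TPM these data had many more genes called higher than lower, a setting that the simulation did not cover. Each ratio within a library was tested by exact permutation over 20 assignments. Depth was estimated from the steps between low TPM values with GENCODE M21 exon lengths. It is a single estimate per library, given without an error, and depends on those lengths. Rescaling assumes that the typical gene did not change. Summaries used Python 3.11.15 with pandas 2.3.3 and scipy 1.17.1.

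Beyond title numbers, nothing in the labels states that each library came from its own animal, so p-values measure the spread between these libraries. Replicates were numbered in order and pair nothing, and no batch is labelled. Named genes were all members, any tested gene of the pathway and regulator lists, and the 3 nearest genes per member without placeholder names. Some of these genes are not reported here. Members and lists were chosen with earlier results of these data known. Alternatives were other scalings, pseudocounts, filters and limma settings, and each library left out.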

Additional observations from a re-analysis of the deposited data

How the results depend on the processing

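Of the 8 genes, Oxct1, Acat1, Bsg and Ldhb kept direction and call under all 21 alternatives. Ldha, 0.60 in TPM, reversed to -0.030 after rescaling, and on that scale to -0.084 without overexpression replicate 2, -0.012 without overexpression replicate 3, -0.021 without control replicate 2 and -0.093 without control replicate 3. Leaving out replicate 1 of either group gave differences of 0.03 or less. None of these was called. For Ldha, the other scalings gave 0.31 without mitochondrially encoded genes and 0.55 under quantile normalization, both called. Slc16a1 was called lower under 10 alternatives, among them all 3 other scalings. The number of genes called higher, 2 in TPM, was 1 after rescaling and 0 to 1 there with a library left out. The number called lower was 4 to 6 throughout. Of the flanking pathway genes, 5 were higher and 11 lower in TPM. Rescaling gave 3 and 18, quantile normalization 3 and 17, and a mean of at least 5 TPM 3 higher. With a library left out after rescaling 2 to 3 were higher and 14 to 17 lower. All-gene shares were computed for deposited and rescaled TPM with all libraries only, so the other counts here have no background beside them. Rescaling shifts each library by its factor, which moves the differences downward; the cause of the other changes was not tested. The 3 ratios within a library kept their sign without any library: -27.1 to -23.2 points for Ldhb, 7.12 to 9.74 points for Slc16a3, and -0.31 to -0.07 log2 units for Oxct1 to Bdh1. With 3 libraries a group, exact tests cannot go below p = 0.1. No paired analysis was possible because the sample numbers in the titles differ between the groups.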

Other observations

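Genes of the transcription factors that are known to act on fuel genes included both higher and lower ones. Of 11 tested, 4 were lower and 4 higher in TPM, where 9.09% of all tested genes were lower and 59.0% higher. After rescaling 7 were lower and 2 higher, where 24.0% of all tested genes were lower and 22.2% higher. Ppara, the receptor that drives fatty acid and ketone genes, was at 12.9 ± 4.01 TPM in overexpression libraries and 29.4 ± 4.72 TPM in control libraries (SD, n = 3 each; log2 difference -1.16, limma adjusted p = 0.00149). Esrrg, an estrogen-related receptor of the heart, was at 10.6 ± 2.90 TPM in overexpression libraries and 19.7 ± 1.35 TPM in control libraries (adjusted p = 0.00401). Their relatives differed. Ppard was called higher in TPM (limma adjusted p = 0.00152) and not after rescaling (0.385). Esrra, more abundant than Esrrg, and Esrrb were not called in TPM (adjusted p = 0.0519 and 0.406) and were lower after rescaling (0.000868 and 0.0102). Hif1a, the oxygen-regulated factor, was at 82.7 ± 2.35 TPM in overexpression libraries and 43.6 ± 10.2 TPM in control libraries. It was called higher in TPM (adjusted p = 0.000856) and not after rescaling (log2 difference 0.32, adjusted p = 0.172). Its partner Arnt was higher on both scales (log2 differences 0.99 and 0.38, adjusted p = 0.000192 and 0.0325). Myc, which is known to act on Ldha, had 26.0, 23.4 and 38.2 TPM in overexpression libraries, against 8.58, 2.81 and 2.67 TPM in control libraries. It was called higher on both scales (log2 differences 2.53 and 1.98).

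Control replicate 1 stood apart from the other controls in several of these genes. It had the highest Slc16a3 and Myc and the lowest Slc16a1 of the controls. Ppargc1a, the coactivator of mitochondrial genes, was at 21.6, 10.3 and 21.6 TPM in overexpression libraries, against 104, 335 and 416 TPM in control libraries, with control replicate 1 the lowest (log2 difference -3.77, adjusted p = 0.000263). The Ldhb share of control replicate 1, 75.2%, lay between those of the other controls. Control replicate 1 was picked out here because of these values.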
